A study of Mus musculus with 7 samples.

Results

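Piece 01 of the KO + NM1 tumor was set against pieces 02, 03 and 04 of that condition, gene by gene, over the 18089 of 46603 genes that held at least 10 counts in any of these 4 libraries. The 4 libraries are part of a series of 7, and the 3 libraries of NM1 KO tumor were left out. Piece 01 was chosen by its own measured values, because its B cell and lymphoid stroma genes (Cd79a, Fcer2a, Madcam1 and Pax5 as the markers) stood apart from those of the other pieces, so every difference below is a description and carries no test and no p-value.

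The study asked what loss of nuclear myosin 1 (NM1), a nuclear isoform of the motor protein Myo1c, does to mitochondrial genes and to tumor growth. KO + NM1 cells are mouse embryonic fibroblasts (MEFs, a line from the ATCC) that first lost NM1 to CRISPR/Cas9 editing and then regained it from a lentivirus coding for NM1 with HA and V5 tags. The cells were selected with neomycin and grown from single clones, so the line descends from single cells. They were injected under the skin of female nude mice of 16 weeks (Balb/c nude in the methods), 5 mice per group. The site is the right flank in the labels, while the mammary pad is named elsewhere in the study, and the labels end the experiment at 30 days, while the methods give a shorter time. Per the labels the KO + NM1 tumor was cut into 4 equal pieces, and each was homogenized on its own. The methods write of tumors in the plural, so whether all 4 pieces came from 1 tumor is not settled. If they did, the range over pieces 02 to 04 measures the spread within a tumor and holds no difference between mice.

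Each difference is the log2 CPM (counts scaled to a common library size, written CPM below) of piece 01 minus the mean log2 CPM of pieces 02 to 04. It is read beside the range of those 3 pieces. A gene was called higher where piece 01 lay at least 1 log2 unit above the highest of the 3, and lower where it lay at least 1 unit below the lowest. Total counts were between 24088309 and 26841529 per piece, and piece 01, with 25537103, lay inside this range. At this depth 3 counts, the floor used for a gene listed at 0, were worth 0.102 CPM in piece 01 and 0.115 to 0.143 CPM in the others. The gene threshold cut through a thinly counted range, with 241 genes whose highest count was exactly 10 (1810062G17Rik had 3, 1, 10 and 8 counts in pieces 01 to 04) and 296 just outside with a highest count of 9 (4933430I17Rik had 9, 6, 7 and 6).

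Across all tested genes the log2 CPM of piece 01 had a Pearson r of 0.839 to 0.842 with the other pieces, which had 0.977 to 0.985 among themselves. These are correlations over genes, which are not independent replicates. Of the 18089 genes, 2936 (16.2%) were called higher in piece 01 and 2719 (15.0%) lower. Piece 01 was picked from this same contrast, so nothing is read from these shares. They are the background to set beside the counts called in each list below. The median difference was 0.03 and the median range of pieces 02 to 04 was 0.42. Calls in the higher direction made up 51.9% of all calls, and 63.8% when libraries were scaled by total count alone, which moved the median difference of all genes to 0.30. The genes called higher took 21.7% of all counts in piece 01 and 2.69 to 3.80% in the others, while the genes called lower took 8.82% against 29.1 to 31.5%. The directions also differed in reach. Among genes with at least 20 CPM, 254 of 1075 called higher had a difference of at least 4, and 0 of 1201 called lower had one of -4 or less.

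**Figure D1:**
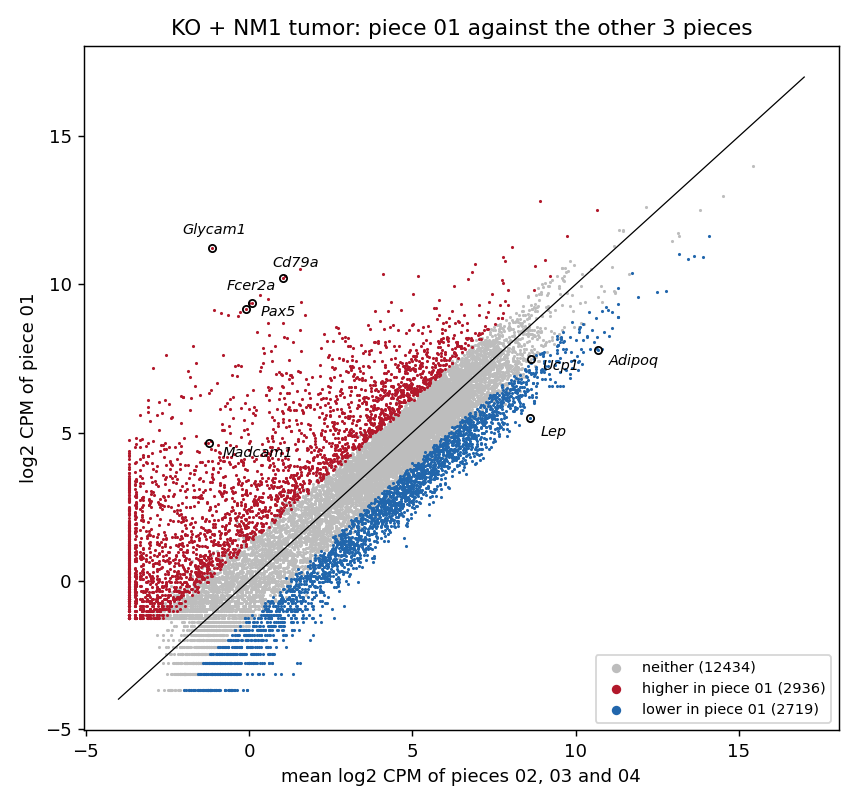
Log2 CPM of each of the 18089 tested genes in piece 01 (vertical) against its mean log2 CPM in pieces 02, 03 and 04 (horizontal), with the line of equality in black. The 2936 genes called higher are red, the 2719 called lower are blue, and open circles mark named genes; Glycam1 lies 12.38 log2 units above its mean in the other pieces, and Lep 3.11 units below.

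Myo1c, the gene that encodes NM1, was nearly even across the pieces under TMM, the scaling used here. It had 407 CPM in piece 01 and 384, 391 and 359 CPM in pieces 02 to 04, a difference of 0.11 beside a range of 0.12. When libraries were scaled by total count alone the difference was 0.39. The count covers all Myo1c isoforms of host and injected cells, so it does not check the rescue. Of 9 genes listed for NM1 and its partners 8 lay above the other pieces and 1 below. Their median difference was 0.65 beside a median range of 0.19. Ddx21, an RNA helicase of ribosomal RNA synthesis, was the 1 called, with 114 CPM against 48.9, 52.0 and 53.7. Of 9 genes listed as candidates for the injected line 4 were tested. Xist, expressed from the inactive X chromosome of female cells, the host's included, had 346 CPM in piece 01 and 293, 331 and 353 CPM in the others. Kdm5d, a Y-linked demethylase, was the 1 called higher, at 0.339 CPM against 0 to 0.0476. The other pieces held it under their floors. It therefore passed the filter only through piece 01, and nothing is read from its call. Hmga2, an oncofetal chromatin protein, had 0.237 CPM in piece 01 and 0.383 to 1.51 CPM in the others, and the other Y-linked genes Ddx3y and Eif2s3y were listed at 0 in all 4 pieces. The labelled tissue, tumor, has no defining marker among these genes, and what follows describes the cell type genes that were read.

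Lymph nodes gather B cells into follicles, where follicular dendritic and reticular stromal cells hold them with chemokines such as Cxcl13, and T cells into a paracortex built on Ccl19 and Ccl21. Lymphocytes enter through high endothelial venules, which carry sulfated and fucosylated mucins, and lymph passes through sinuses lined by macrophages. Nude mice lack a thymus and so most T cells, but they make B cells, and their lymph nodes are embedded in fat. In a bulk library, more cells of a type and more RNA per cell cannot be told apart.

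The start regions of the 4 markers and of Lep, the secreted hormone with the most negative difference in the white adipocyte list, are shown because the markers chose the piece and Lep stands for the genes that were lower in it. Each is 300 bases of RefSeq promoter in build GRCm38.p6, from 250 bases before an annotated start to 50 after it, 5′ to 3′ on the gene's strand, in capitals where a motif was found.
Cd79a: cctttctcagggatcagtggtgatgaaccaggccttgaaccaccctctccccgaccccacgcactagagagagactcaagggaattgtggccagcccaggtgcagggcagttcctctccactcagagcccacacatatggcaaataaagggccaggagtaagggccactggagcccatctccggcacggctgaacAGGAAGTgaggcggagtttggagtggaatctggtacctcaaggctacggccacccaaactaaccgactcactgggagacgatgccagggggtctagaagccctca
Fcer2a: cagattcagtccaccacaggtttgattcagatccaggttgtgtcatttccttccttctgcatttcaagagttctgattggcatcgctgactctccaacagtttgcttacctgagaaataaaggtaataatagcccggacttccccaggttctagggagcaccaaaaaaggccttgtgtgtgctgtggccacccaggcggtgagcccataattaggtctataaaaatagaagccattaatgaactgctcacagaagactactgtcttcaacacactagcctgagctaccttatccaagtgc
Pax5: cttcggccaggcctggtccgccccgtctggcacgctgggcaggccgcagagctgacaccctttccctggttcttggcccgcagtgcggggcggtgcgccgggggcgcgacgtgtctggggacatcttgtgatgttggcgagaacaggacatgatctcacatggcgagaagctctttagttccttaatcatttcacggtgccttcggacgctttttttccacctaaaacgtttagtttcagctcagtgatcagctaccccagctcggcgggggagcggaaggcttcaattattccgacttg
Madcam1: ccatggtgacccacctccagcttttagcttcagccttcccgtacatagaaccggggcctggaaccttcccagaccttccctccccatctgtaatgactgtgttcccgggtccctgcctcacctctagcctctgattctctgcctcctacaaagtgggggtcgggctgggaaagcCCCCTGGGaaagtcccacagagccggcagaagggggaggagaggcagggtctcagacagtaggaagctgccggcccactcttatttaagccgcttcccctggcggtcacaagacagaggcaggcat
Lep: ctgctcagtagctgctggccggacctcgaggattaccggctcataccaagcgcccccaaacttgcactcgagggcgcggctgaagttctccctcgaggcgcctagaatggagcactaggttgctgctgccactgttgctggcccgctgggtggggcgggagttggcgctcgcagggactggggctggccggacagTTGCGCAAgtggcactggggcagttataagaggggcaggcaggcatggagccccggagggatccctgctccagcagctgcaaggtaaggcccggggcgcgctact
They lie at chr7:24897247-24897546 (+), chr8:3694125-3694424 (-), chr4:44710645-44710944 (-), chr10:79664309-79664608 (+) and chr6:29059971-29060270 (+), in that order, and the Fcer2a window is 1 of 3 listed starts. Searched on both strands were the octamer ATGCAAAT, an EBF core CCCNNGGG, a kappa B site GGGANTTCC, a PU.1 core AGGAAGT, an estrogen-related receptor element TCAAGGTCA, a nuclear receptor repeat start AGGTCAAAG, a C/EBP palindrome TTGCGCAA and an NRF1 core GCGCATGCG. Cd79a held a PU.1 core at position -55 from the start, Madcam1 an EBF core at -76 and Lep a C/EBP palindrome at -55. In the Fcer2a and Pax5 windows none of the 8 letter strings was present. Over all 32851 promoters of this length 9.35% held the PU.1 core, 13.7% the EBF core and 0.183% the C/EBP palindrome. The PU.1 core was in 15.5% of the 2295 promoters of genes called higher and in 7.25% of the 2440 promoters of genes called lower. By list it was in 28.6% of 28 B cell and 22.2% of 18 lymphotoxin and NF-kB promoters. It was also in 21.2% of 33 promoters of respiratory complex I, whose genes lay below the other pieces, and in 0 of 15 white adipocyte promoters. The kappa B site was in 1.68% of all promoters, 2.79% of those called higher and 1.27% of those called lower. The EBF core was in 17.9% of those called higher and 19.7% of those called lower. Over the 15812 promoters of tested genes the shares were 9.35% for PU.1, 2.14% for kappa B and 18.2% for EBF. These are matches of letters and say nothing of binding.

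The B cell genes were the group that stood farthest apart. Of 30 listed genes 28 were called higher in piece 01, 0 lower, and their median difference was 7.78 against 0.03 over all tested genes. Cd79a, a signalling chain of the B cell receptor, had 1196 CPM in piece 01 and 1.72, 4.62 and 0.966 CPM in pieces 02 to 04, 491-fold their mean. Pax5, the transcription factor that fixes B cell identity, had 577 CPM against 0.918, 2.66 and 0.232. Fcer2a, the low-affinity IgE receptor CD23 of mature follicular B cells, had 668 CPM against 0.612, 2.14 and 0.696. In each of these genes piece 01 was far above the other 3, and piece 03 was the highest of the rest.

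Other receptors and coreceptors of B cells behaved alike. Cr2, the complement receptor CD21 of mature B and follicular dendritic cells, had 522 CPM against 0.344, 1.24 and 0.232. Ms4a1, which encodes CD20, had 532 CPM against 0.612, 1.52 and 0.425. Cr2 and Ms4a1 are known from mature B cells. Vpreb3, a protein first known from B cell precursors, was at a lower level of 21.6 CPM against 0.0773 to 0.115, with a difference of 6.97. Among regulators, Spib, an Ets factor of lymphocytes, had 499 CPM against 0.497, 0.761 and 0.464, and Pou2af1, the coactivator of octamer factors, had 487 CPM against 0.459, 2.24 and 0.309. Blk, a Src-family kinase of B cells, had 195 CPM against 0, 0.476 and 0.0387. Cxcr5, the receptor for Cxcl13 that guides B cells into follicles, had 215 CPM against 2.76 to 3.09.

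The exceptions to the group were Ebf1 and Cecr2. Ebf1, a B lineage factor that adipocytes and stromal cells also use, had 214.5 CPM in piece 01 and 186 to 190.2 CPM in the others, a difference of 0.19. Cecr2, a chromatin remodeling factor, had 16.1 CPM, inside the range of 13.4 to 18.0. Among the 30 genes piece 03 was the highest of the other 3 pieces in 16 and pieces 02 and 04 in 7 each. The summed level of the list was 11889 CPM in piece 01 and 324 to 344 CPM in the rest, of which Ebf1 made up most.

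**Figure D2:**
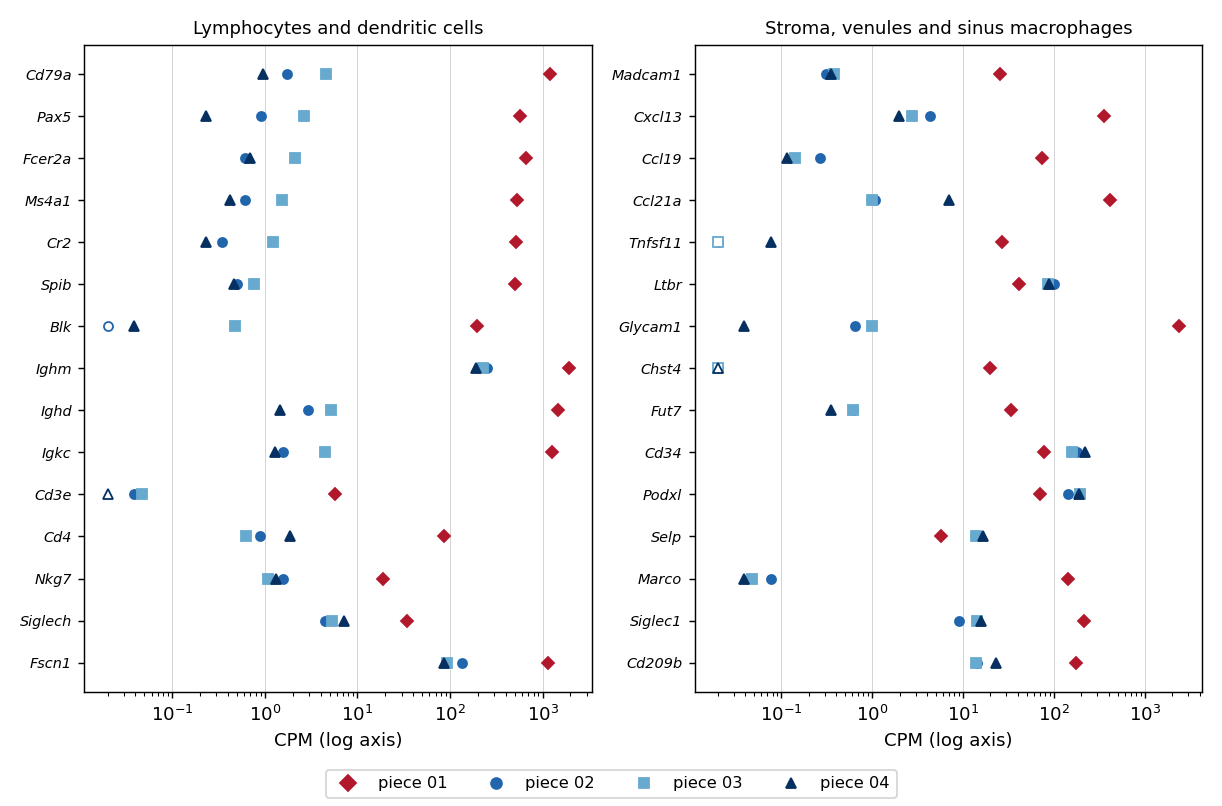
CPM on a log axis of named lymphocyte and dendritic cell genes (left) and of stromal, venule and sinus macrophage genes (right), 1 point per piece, with open symbols at the left edge for a gene listed at 0. Red diamonds of piece 01 lie to the right of the 3 other pieces for every gene shown except Ltbr, Cd34, Podxl and Selp, where they lie to the left.

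Immunoglobulin constant genes followed the B cell genes, and Ighm and Ighd had the highest levels in piece 01. All 11 tested were called higher, with a median difference of 6.97, or 6.28 with genes listed at 0 in the other pieces set at their bound. Of the 13 listed genes 5, 6 and 5 were at 0 in pieces 02, 03 and 04. Those at 0 in all of these pieces could pass the filter only through piece 01, and nothing is read from their calls. Ighm, the constant region of IgM, had 1932 CPM in piece 01 and 249, 229 and 192 CPM in the others. Ighd, the constant region of IgD carried by naive B cells, had 1461 CPM against 2.95, 5.23 and 1.47. Igkc, the kappa light chain constant region, had 1262 CPM against 1.57, 4.42 and 1.28. Ighm was thus the constant gene with a sizeable level outside piece 01 too, where Ighd and Igkc were low.

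Switched classes were at low levels. Ighg3 had 9.69 CPM and Ighg2b 7.90 CPM in piece 01, and both were listed at 0 in pieces 02 to 04, at least 77.9-fold and at least 63.4-fold higher than the mean of their 3 floors. Igha, the mucosal class, had 9.05 CPM against 0.0476 to 0.502. Ighg1 had 3 counts' worth, 0.102 CPM, and Ighe was listed at 0. Per length, Ighm was 1.33 times Ighd in piece 01, and Igkc was 4.44 times the sum of Iglc1, Iglc2 and Iglc3. The lambda genes are near-identical copies, so how reads were split among them is uncertain.

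Variable segments were read across both main chains. In piece 01, 85 of the 113 heavy chain V segments annotated as genes (pseudogenes left out) held at least 10 counts, and 8208 counts fell on the segments, against 6 to 12 counts in each other piece. The most used, Ighv9-3, took 5.25% of these counts (95% Wilson interval 4.79 to 5.75). Of kappa V segments, counted likewise, 86 of 100 held at least 10 counts, with 16357 counts against 2 to 28, and the most used, Igkv6-15, took 4.81% (4.49 to 5.15). So no single segment held most counts of the heavy or kappa chain, and the 10 most used took 36.0% of the heavy and 33.0% of the kappa counts. Lambda counts lay on 3 segments, with 1125 counts against 0 to 2, and Iglv3 took 59.8% of them (56.9 to 62.6). Intervals and floors cover counting error only, and V segments share sequence, so single segments are uncertain.

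Germinal centre and plasma cell genes were called in part. Bcl6, the master regulator of germinal centre B cells that other tissues use too, had 75.4 CPM against 51.9, 70.3 and 53.7. Of 8 tested germinal centre genes 3 were called higher, where 16.2% of all tested genes were, with Il21r, the receptor of interleukin 21, at 207 CPM against 1.03 to 1.47. Of 10 plasma cell genes 4 were called. Mzb1, a chaperone of antibody-secreting and marginal zone B cells, had 77.7 CPM against 0.230 to 0.309, and Jchain, which joins IgM and IgA multimers, had 54.5 CPM against 0.115 to 0.309. Prdm1, which drives plasma cell fate, had 4.75 CPM against 3.75 to 3.85, and Sdc1, the surface marker CD138 that epithelia share, had 28.1 CPM against 35.4 to 70.7. The median differences of these 2 lists were 0.47 and 0.57.

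T cell genes were higher but at far lower levels. Of 22 tested, 21 were called higher, with a median difference of 5.19. Cd3e, a chain of the T cell receptor complex, had 5.76 CPM against 0.0383, 0.0476 and 0, and per length Cd79a was 581 times Cd3e in piece 01. That ratio is of 1 gene pair. Over the lists the median log2 CPM in piece 01 was 8.14 for B cell and 3.15 for T cell genes, a smaller contrast. Cd8a, the coreceptor of cytotoxic T cells and some dendritic cells, had 25.0 CPM against 0, 0.428 and 0.0387. Cd4, which dendritic cells and macrophages also carry, had 85.8 CPM against 0.619 to 1.86. Ccr7, the receptor for Ccl19 and Ccl21 that other lymphocytes and dendritic cells use too, had 149 CPM against 0.502 to 1.95. Trac, the receptor alpha constant region, had 1.80 CPM against 0.190 to 0.651.

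Of 6 tested gamma delta T cell genes 5 were called higher and 0 lower, with a median of 4.64. In piece 02, 5 of the 7 listed genes were at 0. With at least 10 counts required in each library the list median shifted by 3.3, the largest shift of a list under that filter. Nothing is read from the calls of genes that passed only through piece 01. Cd163l1, a scavenger receptor of gamma delta T cells, had 15.7 CPM against 0 to 0.0773, and Trdc, the delta constant region, had 10.3 CPM against 0.497 to 1.09. Sox13, which many tissues express, was below the other pieces but not called, at 25.6 CPM against 47.6 to 58.5. Of 11 NK cell genes 10 were called higher, with a median of 3.74. Ncr1, the receptor NKp46, had 20.7 CPM against 0.714 to 2.10, and Eomes, a T-box factor, had 13.8 CPM against 0.309 to 0.571. Gzmb, the cytotoxic granzyme, was the exception with 2.00 CPM against 1.09 to 1.62.

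Dendritic cell genes were higher in most cases. Of 13 tested genes 11 were called higher, with a median of 2.69. Ccl22, a chemokine of activated dendritic cells, had 339 CPM against 1.99, 2.95 and 0.193. Fscn1, the actin bundler of mature dendritic cells that other tissues share, had 1151 CPM against 135, 93.6 and 87.1. Flt3, the growth factor receptor of the lineage, had 39.6 CPM against 0.804 to 1.16. Xcr1 of cross-presenting cells had 11.4 CPM against 0.238 to 0.804, and Siglech of plasmacytoid cells had 34.1 CPM against 4.48 to 7.15. Zbtb46 (31.4 CPM against 22.8 to 28.9) and Cd209a (7.63 against 7.52 to 11.6) were not called.

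Sinus macrophage genes included 1 of the largest differences. Marco, a scavenger receptor of medullary and marginal zone macrophages, had 144 CPM in piece 01 and 0.0765, 0.0476 and 0.0387 CPM in the others, a difference of 10.10. Siglec1, the sialoadhesin of subcapsular sinus macrophages, had 216 CPM against 8.92, 14.2 and 15.9. Cd209b, also known as SIGN-R1, had 173 CPM against 14.3, 14.0 and 23.2. Of 7 genes 6 were called, and Mertk, an efferocytosis receptor of many macrophages, was not, with 15.8 CPM against 11.1 to 13.8.

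Stromal genes of follicles and the T zone were higher as well. Of 18 tested genes of reticular and follicular dendritic stroma 14 were called higher and 1 lower, with a median of 3.61. Madcam1, the addressin of lymphoid stroma and mucosal venules, had 25.2 CPM against 0.306, 0.381 and 0.348, or 73.0-fold the mean. Cxcl13, the follicular chemokine, had 352 CPM against 4.29, 2.76 and 1.97. Ccl19 and Ccl21a, the T zone chemokines, had 73.0 CPM against 0.116 to 0.268 and 416 CPM against 0.999 to 7.07, and Ccl21a shares reads with near-identical copies. Tnfsf11, the cytokine RANKL of marginal reticular cells, had 27.0 CPM against 0, 0 and 0.0773. Grem1, a BMP antagonist of reticular fibroblasts, had 26.2 CPM against 0.0387 to 0.0765. Ltbr, the lymphotoxin beta receptor, was the gene called lower, with 41.3 CPM against 101, 86.0 and 87.2. Pdpn, the podoplanin of reticular cells and lymphatics, had 12.9 CPM, inside the range of 9.94 to 16.9.

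The high endothelial venule list split in direction. Its median difference was -0.83, with 6 of 14 genes called higher and 3 lower. Those called higher include the sugar-coated mucin of these venules and enzymes that modify it. Glycam1, the mucin, which is a milk protein as well, had 2401 CPM against 0.651, 0.999 and 0.0387, the largest difference of all genes with at least 20 CPM. Chst4, the sulfotransferase specific to these venules, had 19.7 CPM and was listed at 0 in the other pieces, at least 158-fold above the mean of their 3 floors. Fut7, which adds the fucose, had 33.8 CPM against 0.348 to 0.619, and Chst2, another sulfotransferase, had 61.6 CPM against 6.14 to 10.5. Those called lower are general endothelial genes. Cd34 had 77.8 CPM against 180.1, 156 and 221, Podxl had 70.3 CPM against 142 to 194, and Selp, the P-selectin, had 5.69 CPM against 13.8 to 16.4. Ackr1, a chemokine receptor of venules, had 11.4 CPM against 17.6 to 24.0 and was not called.

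Blood vessel genes as a list lay below the other pieces, with a median of -0.88, 11 of 12 below the range and 1 called lower (Tek, the angiopoietin receptor, at 29.1 CPM against 75.1 to 85.2). Pecam1, which lymphocytes and platelets carry too, was above it, at 445 CPM against 269.7 to 312. Among lymphatic genes 6 of 12 were called higher. Stab2, a hyaluronan scavenger of sinus endothelium, had 11.6 CPM against 0, 0 and 0.0773, and Prox1, the lymphatic master regulator, had 9.29 CPM against 0.536 to 2.13. Flt4, the VEGF-C receptor, had 27.2 CPM against 19.4 to 20.5 and was not called. Of 5 genes listed for spleen and gut lymphoid stroma 2 were tested, with differences of -0.86 and -0.53. Of these 1 lay below the range, 1 inside it, and 0 were called. Tlx1 and Nkx2-3, which pattern the stroma of the spleen, were under the filter. They had 0.170 and 0.102 CPM in piece 01, 5 and 3 counts, and were listed at 0 elsewhere.

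Lymphotoxin from lymphocytes keeps lymphoid stroma in place through the non-canonical NF-kB pathway. Of the 19 tested genes of this pathway 16 were called higher and 1 lower, with a median of 2.81. Ltb, the lymphotoxin beta ligand, had 679 CPM against 3.29, 2.62 and 2.94, and Lta had 44.6 CPM against 0.421 to 0.952. Cd40, the receptor of B and dendritic cells, had 130.3 CPM against 1.58 to 2.26. The signal transducers followed, with Nfkb2 at 451 CPM against 46.8 to 63.1, Relb at 209 CPM against 27.1 to 32.6 and Map3k14 at 96.1 CPM against 12.4 to 17.9. The receptors Ltbr (called lower) and Tnfrsf1a (103 CPM against 178 to 221, not called) were below the other pieces. Rela, a subunit used by all cells, had 176 CPM against 97.2 to 117.

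All 11 genes of MHC class II presentation were called higher, with a median of 3.91. Cd74, the invariant chain, had 7225 CPM against 553, 389 and 519.9, the largest CPM gain of any gene. Those restricted to B cells and some dendritic cells had the larger differences. H2-Ob had 301 CPM against 1.53 to 2.44, and H2-Oa had 101 CPM against 0.306 to 0.714. Ciita, the class II transactivator, had 271 CPM against 4.90 to 5.66. Class I genes differed less, with a median of 0.79 and 3 of 11 called higher, where 16.2% of all tested genes were. B2m, the class I light chain, had 1476 CPM, inside the range of 1246 to 1633. Of the interferon-stimulated genes 7 of 19 were called higher, led by Mx1 at 25.3 CPM against 0.580 to 1.19, and Rsad2 was below the others at 5.90 CPM against 8.74 to 14.4.

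Complement and macrophage genes were mixed, and most neutrophil genes were higher. Of 20 complement genes 5 were called higher and 4 lower, where 16.2% and 15.0% of all tested genes were. C3, the central component, had 1837 CPM against 421 to 640.3, and Cfd, the adipocyte factor D, had 877 CPM against 5803 to 8196. Of 14 macrophage genes Lyz2, lysozyme, was the 1 called higher, with 1763 CPM against 189 to 255.5. Cd163, Mrc1 and Cd14 were called lower, and Cd163, a scavenger receptor of tissue macrophages, had 6.30 CPM against 24.5, 30.4 and 40.9. C1qa, C1qb and C1qc lay above the other pieces without being called, with differences of 0.34 to 0.48. Of 9 neutrophil genes 7 were called higher, with a median of 3.25. Cxcr2, the chemokine receptor that draws neutrophils into tissue, had 33.7 CPM against 0.459 to 0.571. In piece 01 S100a8 and S100a9 had 9.32 and 20.98 CPM. Ltf, lactoferrin of granules and of mammary epithelium, was called lower, with 137 CPM against 563, 679 and 1496.

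Cycling and ribosomal genes were modestly higher. All 20 cell cycle genes lay above the other pieces and 12 were called, with a median of 1.88. Mki67, the proliferation antigen, had 18.9 CPM against 4.06, 4.19 and 6.61. Of 20 DNA replication genes 9 were called, and Mcm5, a helicase subunit, had 57.6 CPM against 7.09 to 9.11. All 33 cytosolic ribosomal protein genes lay above the others, with a median of 0.77 and differences of 0.52 to 1.18, but Rpl5 was the 1 called.

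The genes called lower were led by white adipocytes. All 15 listed genes were called lower, with a median difference of -2.77 and a span of -3.11 to -2.34. Adipoq, the hormone adiponectin, had 218 CPM in piece 01 and 1949, 1692 and 1372 CPM in the others. Lep, leptin, had 44.5 CPM against 428, 363 and 367, so the mean of the other pieces was 8.68-fold higher. Plin1, the lipid droplet coat protein, had 224 CPM against 1818, 1844 and 1275. Fabp4, the fatty acid carrier, had 1844 CPM against 12218, 13520 and 8418. In these genes piece 01 held a lower but still high level, and no other piece overlapped it. Among the 15 largest gaps in the lower direction were Mc2r, the corticotropin receptor, with 2.17 CPM against 26.1 to 29.2 and a difference of -3.64, the most negative among genes with at least 20 CPM in each other piece, Slc7a10, an amino acid transporter of fat, with 12.1 CPM against 93.3 to 109, and Tshr, the thyrotropin receptor, with 16.8 CPM against 119.6 to 147.

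Brown adipocyte genes separated piece 01 less cleanly, and they varied among the other pieces. Of 18 tested genes 5 were called lower, and the median was -1.39, which became -0.64 without piece 03. Ucp1, the uncoupling protein of brown fat, had 178 CPM in piece 01 and 306, 1710 and 122 CPM in the others, a difference of -1.17 beside a range of 3.81, or -0.12 without piece 03 and -2.02 without piece 04. Cidea, a lipid droplet protein of brown fat, had 90.1 CPM against 228, 763 and 106. Piece 03 was thus the brown-rich piece, while piece 01 lay near piece 04. Called lower were Ppargc1a, Dio2, Prdm16, Ebf2 and Kcnk3, and Dio2, the deiodinase that activates thyroid hormone, had 0.441 CPM against 2.33, 5.38 and 2.90.

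Relative to Adipoq, piece 01 was not the lowest. The CPM of Ucp1 over that of Adipoq was 0.815 in piece 01, 0.157 in piece 02, 1.01 in piece 03 and 0.0889 in piece 04. The summed brown list over the summed white list was 0.0974, 0.0329, 0.112 and 0.0237 in the same order. Lep over Adipoq hardly moved, at 0.204, 0.220, 0.215 and 0.267. These ratios are between genes of different length and are compared only between pieces.

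Lipid synthesis and oxidation genes went with the adipocyte genes. Of 20 genes of fatty acid and triglyceride synthesis all lay below the other pieces and 14 were called lower, with a median of -1.91. Fasn, fatty acid synthase, had 2059 CPM against 7853, 16053 and 6366, and Scd1, the stearoyl-CoA desaturase, had 3181 CPM against 16435, 23361 and 13231. Of 18 oxidation genes 8 were called lower. Cpt1a, the liver-type carnitine transferase, had 59.8 CPM, inside the range of 51.4 to 64.8, and Acadm, the medium-chain dehydrogenase, had 203.5 CPM against 667, 1204 and 416.

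Most genes of the respiratory chain and TCA cycle, which the study asked about, lay below the other pieces, and few were called. All 35 complex I genes lay below the range and 1 was called lower, with a median of -1.11. Ndufs1, the largest core subunit, had 85.6 CPM against 156, 262 and 129.6. Of the 38 genes of complexes II to V 35 lay below the range and 0 were called, with a median of -1.16. Of 17 TCA cycle genes all lay below and 1 was called, with a median of -1.22. Of the 13 protein genes of the mitochondrial genome 12 lay below and 1 was called, with a median of -1.42. mt-Co1, a catalytic subunit of cytochrome oxidase, had 16360.3 CPM against 40961, 81488 and 26377. Mitochondrially encoded genes together took 5.11% of counts in piece 01 and 10.5, 18.5 and 7.77% in the others. Counts of mt-Co1 per Adipoq were 75.0 in piece 01 and 21.02, 48.2 and 19.2 in the rest, with piece 01 the highest.

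Regulators of mitochondrial biogenesis did not follow. Their median was -0.17, 0.10 under library-size scaling and -0.01 without piece 03. Of 14 genes 2 were called lower (Ppargc1a and Esrrb), near the 15.0% of all tested genes. Tfam, the packaging factor of mitochondrial DNA, had 67.2 CPM against 39.3, 42.2 and 37.7, and Ppargc1a, the coactivator PGC-1 alpha, had 3.15 CPM against 10.3, 18.2 and 8.16. Of 20 glycolysis genes 4 were called lower and 1 higher, where 15.0% and 16.2% of all tested genes were. Their median was -0.79, or -0.47 without piece 03. Hk2, the insulin-responsive hexokinase, had 35.4 CPM against 103, 288 and 89.3, and Eno3, the muscle-type enolase, was the gene called higher, at 67.8 CPM against 14.6 to 16.6.

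**Figure D3:**
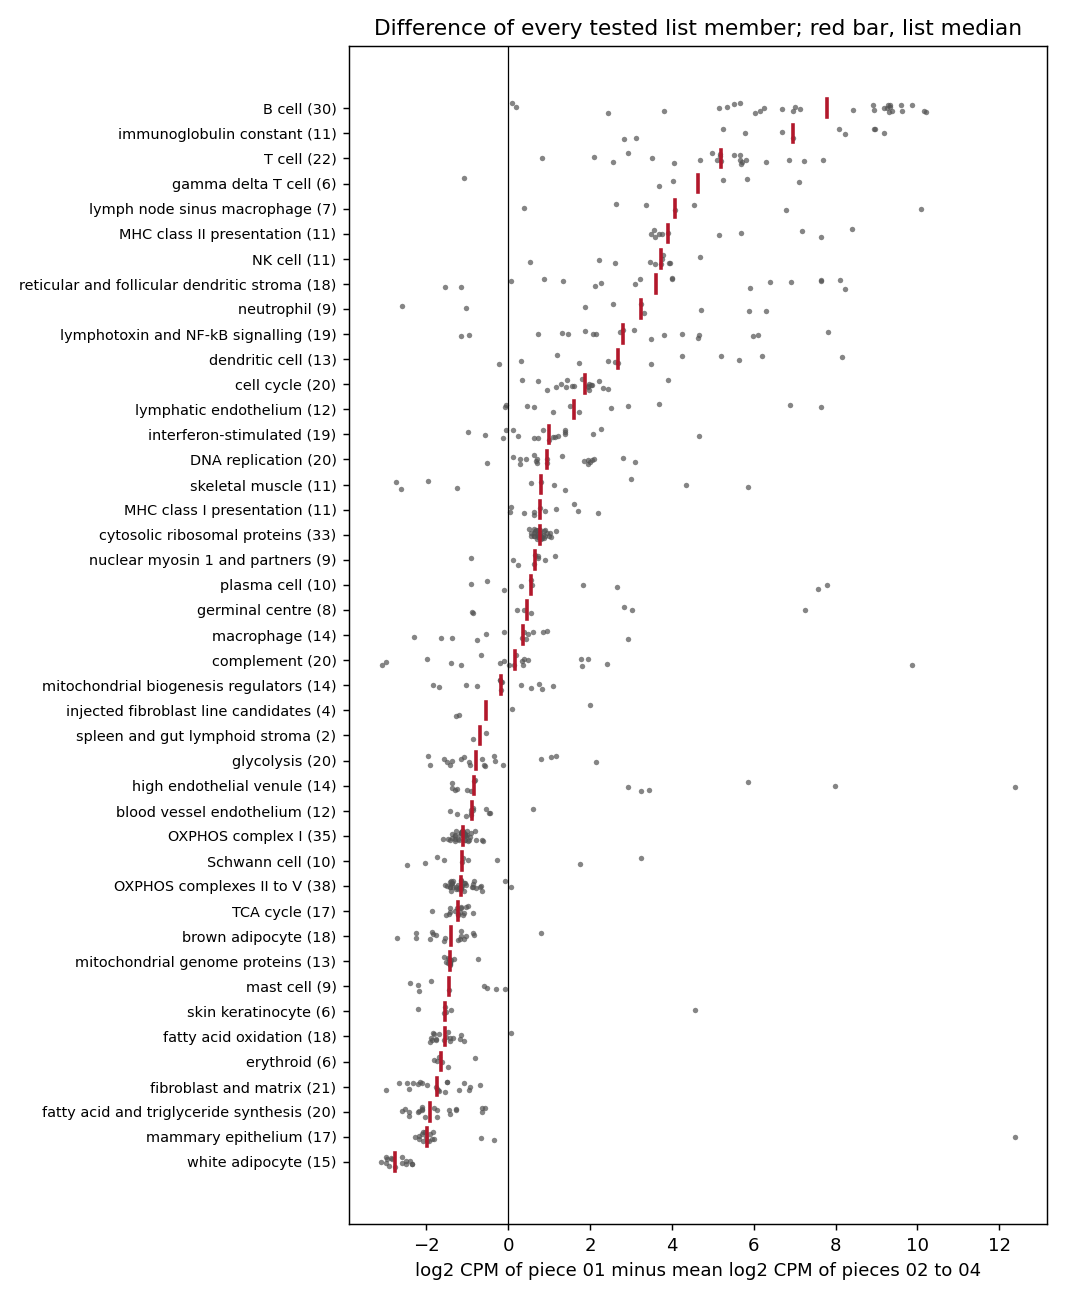
Log2 CPM of piece 01 minus the mean log2 CPM of pieces 02 to 04 (horizontal) for each tested member of every gene list (rows, with the number of tested genes), red bars at the list medians. The lists run from a median of 7.78 for B cell genes to -2.77 for white adipocyte genes, and the single point at 12.38 in 2 rows is Glycam1.

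Mammary epithelial and fibroblast genes were lower too. Of 17 tested mammary genes 14 were called lower, with a median of -1.98, and the 1 called higher was Glycam1. Krt8, a keratin of luminal cells, had 72.8 CPM against 272, 258 and 338. Epcam, the epithelial adhesion molecule, had 81.9 CPM against 304, 246 and 348.5. Csn3, kappa casein, had 143 CPM against 515, 418 and 587.5. Krt8, Epcam and Csn3 were lower by a like amount, while Glycam1, which is a milk gene too, went the other way. Csn2, beta casein, varied from 0.464 to 19.8 CPM among pieces 02 to 04 and was not called.

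Of 21 fibroblast and matrix genes all lay below the other pieces and 16 were called lower, with a median of -1.75. Col1a1, the type I collagen chain, had 548 CPM against 2171, 1234 and 2191. Dpt, dermatopontin of adipose and dermal fibroblasts, had 115 CPM against 1043, 871.5 and 855. Those with the smallest differences were Pdgfrb (-0.70, at 95.3 CPM against 139 to 177) and Thy1 (-0.93, at 50.1 CPM against 72.6 to 111), 2 surface markers that reticular cells and pericytes share.

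Blood and other minor tissues differed as well. Of 6 erythroid genes 5 were called lower. Hbb-bs, a beta globin, had 93.7 CPM against 293, 311 and 383, and globin copies share reads. Of 9 mast cell genes 5 were called lower and 0 higher, with Cpa3, carboxypeptidase of mast cells, at 3.08 CPM against 11.1, 14.7 and 28.6. Schwann cell genes were mixed, with 3 of 10 called lower and 2 higher, where 15.0% and 16.2% of all tested genes were. Sox10, their lineage factor, had 17.8 CPM against 51.8 to 104, and Ngfr, the p75 receptor that follicular dendritic cells also carry, had 30.1 CPM against 2.81 to 3.56. Skeletal muscle genes were low and mixed, with 4 of 11 called higher and 3 lower. Ttn, titin, had 13.5 CPM against 0.0765 to 0.387, while Acta1, skeletal actin, had 1.56 CPM against 3.24 to 20.1 and Ckm, muscle creatine kinase, was under the floor in all pieces. Of 6 tested keratinocyte genes 3 were called lower and 1 higher, with Krt10 at 3.08 CPM against 8.81 to 10.3.

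**Figure D4:**
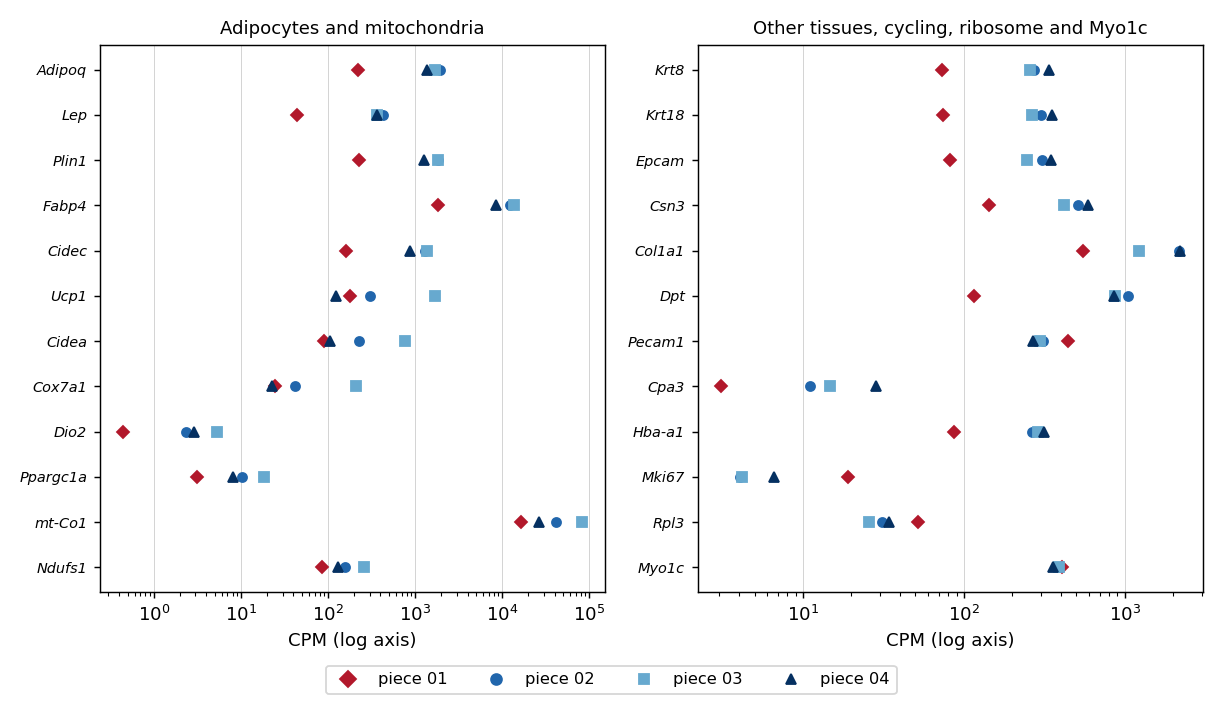
CPM on a log axis of named adipocyte and mitochondrial genes (left) and of epithelial, stromal, blood, cycling, ribosomal and Myo1c genes (right), 1 point per piece. Piece 01 lies left of the other pieces for the adipose and epithelial genes but not for Ucp1 and Cox7a1, lies right of them for Pecam1, Mki67 and Rpl3, and for Myo1c all 4 points are between 359 and 407.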

How the data were processed

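RNA was read from 4 pieces of KO + NM1 tumor with the NEBNext Ultra II kit on a NextSeq platform. Per the labels and the methods, the authors used Trimmomatic 0.36 for trimming, HISAT2 2.0.4 for alignment to GRCm38, SAMtools 0.1.19 for sorting and HTSeq for counting. The strand option and annotation release are not given in the sources used here, so overlapping and antisense genes cannot be told apart. The deposited values are raw counts per Ensembl gene, whole numbers without normalization. Symbols for 46091 of 46603 genes came from GENCODE M21.

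Counts were scaled by TMM in edgeR 4.0.16 (R 4.3.3) over the tested genes of the 4 libraries, and log2 CPM took a prior count of 2. A gene was called where piece 01 lay at least 1 log2 unit outside the range of the other 3. A floor of 3 counts stood in for genes at 0. With 1 piece on a side no test was run. Between any pair of the 4 libraries the chi-square per degree of freedom, for genes holding 20 counts or more between them, was 39.0 to 687, so none was a copy of another.

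Piece 01 was selected on measured values, and its markers, the 43 gene lists, the motifs and the rule for named genes were chosen with earlier results of these data known. Named were the 4 markers, genes among the 15 largest gaps in each direction with at least 20 CPM in the higher pieces, and list members (all of short lists, otherwise the extremes and textbook definers). A few genes named by this rule are not reported here. Ratios were chosen after values were seen. Promoters were RefSeq windows in GRCm38.p6. Alternatives were DESeq2 1.42.0 size factors, other scalings, count filters, prior counts, call rules and each of pieces 02 to 04 left out.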

Additional observations from a re-analysis of the deposited data

Results flagged for a closer look

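For the median log2 CPM of each gene list with at least 3 tested genes and the log2 CPM of the 4 markers, 46 values in all, the gap between the outermost piece and its nearest neighbour was divided by the range of the 4 pieces. A ratio above Dixon's 95% critical value for 4 samples sets a piece apart, and chance passes about 1 in 20 independent values, which is 2 of 46. These values come from the same 4 libraries and some lists share genes. They are therefore not independent, and 2 is no valid expectation for them. Here 16 passed, and the piece set apart was piece 01 in each, the highest in 15 and the lowest in 1. Piece 01 had been picked out for standing apart, so these ratios describe the choice.

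Lymphoid lists passed with 0.839 for B cell, 0.886 for immunoglobulin constant, 0.908 for germinal centre, 0.947 for plasma cell, 0.918 for T cell and 0.869 for NK cell genes. The ratio was 0.843 for lymph node sinus macrophage, 0.903 for reticular and follicular dendritic stroma and 0.901 for lymphotoxin and NF-kB signalling genes. It was 0.962 for MHC class II presentation and 0.888 for interferon-stimulated genes. Outside the lymphoid lists it was 0.869 for cytosolic ribosomal proteins and 0.868 for skeletal muscle, with piece 01 highest, and 0.830 for erythroid genes, with piece 01 lowest. Of the markers, Madcam1 had 0.958 and Fcer2a 0.830. The median log2 CPM in piece 01 was 3.02 for germinal centre genes, against 0.29 to 0.54 in the others, and 5.59 for plasma cell genes, against 2.68 to 2.83, while the medians of the gene differences were 0.47 and 0.57.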

How the results depend on the processing

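The count of genes called higher in piece 01 was 2936, and it was within 1.5 times of that under every alternative but 2. It was 1572 among genes with at least 10 counts in each of the 4 libraries, a filter that removes genes near 0 outside piece 01, and 8000 when any value outside the range was called with no minimum gap. The count of genes called lower was 2719 and went to 7442 under the same rule. Leaving out 1 of pieces 02 to 04 gave 3124 to 3305 genes higher and 2916 to 3231 lower, so no single piece moved a count by 1.5 times. Of 473 values of list medians under the alternatives 2 changed sign, neither from a list set apart by the call rule. They were mitochondrial biogenesis regulators, at 0.10 under library-size scaling, and the injected line candidates, at 0.12 with at least 10 counts in each library, where fewer genes were tested. Of 150 values of named genes 0 changed sign. A shift of at least the standard deviation over pieces 02 to 04 was seen in 43 list values and 7 gene values. Scaling by total count alone moved the median difference of all genes from 0.03 to 0.30, so small list medians there shift by a like amount. No paired analysis was possible because the comparison is of 1 piece with 3 and comes from no test. Differences of genes near 0 outside piece 01 depend on the prior count and are no bounds. At these depths a level of 0.102 CPM in piece 01 rests on 3 counts.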

Other observations

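By absolute level rather than by ratio, the largest gains of piece 01 outside the lists were in cytoskeletal genes. Actb, beta actin, had 5774 CPM in piece 01 and an average of 1619 CPM in the other 3 pieces, Tmsb4x, thymosin beta 4, had 3148 against 862 CPM, and Coro1a, the coronin of leukocytes, had 1232 against 36.1 CPM. The largest falls were in Scd1, with 3181 against 17675 CPM, in Car3, the carbonic anhydrase of fat and muscle, with 1943 against 15299.6 CPM, and in Gsn, the actin-severing gelsolin, with 1985 against 12606 CPM. These genes were picked after their values were seen.

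Among the genes with the largest gaps in the higher direction were also genes not known mainly from B cells, Glycam1 and Marco aside. Dsc3, a desmosomal cadherin, had 68.7 CPM in piece 01 and 0.0387 to 0.153 CPM in the others. Cacna1i, a T-type calcium channel, had 65.3 CPM against 0.0383 to 0.0952. Colq, the collagen tail of acetylcholinesterase, had 57.6 CPM against 0 to 0.0952, and Ffar1, a free fatty acid receptor, had 51.4 CPM against 0 to 0.0952.

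The 3 other pieces held traces of the same B cell genes. Piece 03 had the highest Cd79a, Pax5, Fcer2a and Igkc of these, and heavy chain V counts of 6, 12 and 11 in pieces 02, 03 and 04. Krt8 over Adipoq, both lower in piece 01, was 0.334 there and 0.140, 0.153 and 0.247 in the other pieces. Why the pieces differ was not tested.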
